A study of Mus musculus with 12 samples.

Results

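Gene Ontology (GO) terms for the control of transcription, RNA synthesis, gene expression and biosynthesis were examined in 8 lists of genes whose promoters carried more or less H3K4me3 in mutant hippocampus. A term was taken when its name held the word transcription, RNA, gene expression, biosynthetic or DNA binding and did not hold DNA packaging. Of the 1076 terms listed over the 8 tables, 13 were taken, and all 13 came from 1 table, that of the genes up in Kansl1+/-. They made up 4.30% of the 302 terms listed for those genes, which were 1.43% of the terms tested on them. The remaining 7 tables held 0 such terms. They were not alike in length, since 1.18% of all terms tested were listed for the genes up in Del/+, 0.0661% for the genes down in Kansl1+/- and 0.00945% for the genes down in Del/+. For the 4 clusters of promoters up in either mutant the shares were 0.897%, 0.491%, 0.590% and 0.420%, from cluster 1 to cluster 4.

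The mark was measured by ChIP-seq in the whole hippocampus of C57BL/6N mice at postnatal day 30. The 3 Del/+ mice lacked 1 copy of the Arf2-Kansl1 interval of chromosome 11E1, removed by Cre recombination between loxP sites. The 3 Kansl1+/- mice carried 1 inactivated Kansl1 allele, made by Cre deletion from a single embryonic stem cell clone. The 6 wt mice were 3 littermates of each mutant, and the authors set every mutant group against all 6. By the paper's description, cluster 1 gathers promoters up in Kansl1+/- only and cluster 4 those up in Del/+ only. Cluster 2 holds promoters up in both mutants and cluster 3 those up more in Del/+. Lists and clusters therefore share control libraries, and the clusters were drawn from promoters up in either mutant, so the 8 lists are not independent of each other. Which table belongs to which list is known only from the titles of the study's supporting tables. Clusters 1 and 2, with 160 and 214 genes, together hold more genes than the 343 of the list up in Kansl1+/-, so that list does not contain them both. Sizes given here are those derived from the expected numbers, and they count annotated genes, which need not equal the promoters that the study called. The files give 1 value per term and list and none per mouse, so no spread between mice can be given, the depth of the libraries is unknown, and the tissue could not be checked against its markers. In whole tissue, fewer cells of a type and less mark per cell cannot be told apart.

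H3K4me3 is laid down around the start sites of active and poised genes, above all at promoters rich in CpG dinucleotides. KANSL1 is a scaffold of the NSL complex, in which the acetyltransferase MOF acetylates histone H4 and thereby favours transcription, and it binds WDR5, a protein shared with the enzymes that methylate H3K4. The GO terms described here do not cover that general machinery alone. Positive regulation of transcription collects DNA-binding activators and their cofactors, and also ligands, receptors and kinases whose signals end in a change of transcription. GO is nested, so a gene annotated to a narrow term is counted again in each wider one.

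The tables count genes without naming them. Gene sheets that accompany them name the genes up in Kansl1+/- under the parent term, regulation of transcription, DNA-templated, which is not itself among the 302 listed terms. The names that follow are examples, picked by gene family after the sheets were read, and say nothing of how large a share a family takes or of whether it is enriched. Homeobox factors that pattern the embryo and brain are there (Barx2, Dlx6, En2, Mnx1, Msx1, Msx2, Otx1 and Prrx1). So are the T-box factors Eomes, T and Tbx1, the SOX factors Sox4 and Sox9, the AP-1 subunits Fos and Fosl2, and Gata3. Rara is a retinoic acid receptor and Nr2e1 an orphan nuclear receptor of neural stem cells. Notch1 and its target Hes1 are listed too. The signalling genes include the growth factors Bdnf, Bmp6, Fgf10 and Wnt2 and the receptor tyrosine kinases Fgfr1, Kit and Met. Whether each of them also belongs to the positive regulation terms below is not given, and the tables used here hold no value for any single gene.

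En2, Fos, Msx1, Msx2, Rara, Sox4 and T were placed both under that parent term and under another term on the regulation of gene expression. Of these 7 genes, 6 had an entry among the RefSeq promoters of GRCm38.p6, and En2 did not. The 250 bases before the annotated start are given for the first 4 in alphabetical order that have a single entry. The authors called changes at promoters, but the regions in which they counted the mark are not known here. They read 5′ to 3′ on the strand of the gene, and capitals mark each CG. Fos, an immediate early gene, lies on the plus strand at chr12:85473640-85473889. Msx1 lies on the minus strand at chr5:37824586-37824835, Msx2 on the minus strand at chr13:53472781-53473030 and Sox4 on the minus strand at chr13:28953700-28953949.
Fos: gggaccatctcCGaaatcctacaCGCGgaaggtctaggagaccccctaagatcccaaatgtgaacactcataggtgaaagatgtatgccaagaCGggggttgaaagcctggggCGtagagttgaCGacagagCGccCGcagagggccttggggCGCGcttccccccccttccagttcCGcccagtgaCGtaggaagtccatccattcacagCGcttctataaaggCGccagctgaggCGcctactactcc
Msx1: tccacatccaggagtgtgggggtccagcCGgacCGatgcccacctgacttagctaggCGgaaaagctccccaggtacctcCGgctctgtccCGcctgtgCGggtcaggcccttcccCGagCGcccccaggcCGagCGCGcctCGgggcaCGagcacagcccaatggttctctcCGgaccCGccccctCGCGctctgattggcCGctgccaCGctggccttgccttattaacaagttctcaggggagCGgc
Msx2: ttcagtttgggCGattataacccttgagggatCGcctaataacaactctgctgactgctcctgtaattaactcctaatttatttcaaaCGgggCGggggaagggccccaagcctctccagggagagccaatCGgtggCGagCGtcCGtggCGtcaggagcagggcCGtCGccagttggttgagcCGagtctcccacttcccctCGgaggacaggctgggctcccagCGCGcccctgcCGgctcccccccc
Sox4: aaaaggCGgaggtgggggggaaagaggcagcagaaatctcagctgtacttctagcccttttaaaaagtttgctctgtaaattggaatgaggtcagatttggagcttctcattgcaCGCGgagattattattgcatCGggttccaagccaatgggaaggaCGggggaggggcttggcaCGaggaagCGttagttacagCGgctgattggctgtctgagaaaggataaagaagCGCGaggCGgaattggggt

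The CG dinucleotide, which reads the same on both strands, occurred 15 times in the window of Fos, 20 times in that of Msx1, 16 times in that of Msx2 and 11 times in that of Sox4. The window of T, the brachyury gene, held 14. Rara has 4 annotated starts, with 13, 13, 2 and 6. Over all 32851 promoter entries of the table, the median was 6, and 92.1% of windows held at least 1. As many CG as in Msx1 were found in 17.9% of all windows and as many as in Sox4 in 35.6%, so the 5 genes with 1 entry lay above the median of a wide distribution, and 1 start of Rara lay below it. These are counts of letters in the reference and not measurements of the mark. The genes came from a list called on the mark, which sits above all at promoters rich in CpG. The full set of promoter entries, marked or not, is therefore not a matched comparison. The authors' processing notes name mm9, and no coordinate of theirs entered here.

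Positive regulation of transcription from RNA polymerase II promoter, the narrowest transcription term, held 37 of the 343 genes up in Kansl1+/- where 15.51 were expected from its 1061 members among 23468 background genes. This is 10.8% of the list (exact 95% Clopper-Pearson interval 7.71% to 14.6%) against 4.52% of the background, a fold of 2.39. Intervals throughout cover counting error only. A term is in the table only if the authors' enrichment p was below 1e-05, so a fold above 1 was a condition of entry for all 13 terms and is described here without a further test. The authors tested 21172 terms on this list. The cutoff is on the p before correction for that number, so a listed term need not pass a corrected threshold.

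Positive regulation of transcription, DNA-templated, which adds transcription by the other polymerases and genes not assigned to one, held 46 genes against 21.50 expected. That is 13.4% of the list (9.99% to 17.5%) and a fold of 2.14. Positive regulation of nucleic acid-templated transcription had the same counts, 46 genes of 1471, so these 2 terms are 1 observation. Regulation of transcription from RNA polymerase II promoter, which takes activators and repressors together, held 51 genes against 26.72, or 14.9% of the list (11.3% to 19.1%) at a fold of 1.91. A narrower term needs a higher fold to be listed, so the order of the folds of these terms is not read as a difference between activating and joint regulation.

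Wider terms on RNA and gene products had similar values. Positive regulation of RNA biosynthetic process held 46 genes of 1497 (fold 2.10), and positive regulation of RNA metabolic process, which also covers processing and decay, held 46 of 1534 (fold 2.05). Positive regulation of gene expression held 52 genes against 26.06 expected, 15.2% of the list (11.5% to 19.4%). The most general members concern synthesis of any molecule. Positive regulation of macromolecule biosynthetic process held 49 genes against 24.58, positive regulation of cellular biosynthetic process 54 against 26.70, and positive regulation of biosynthetic process 55 against 27.24. Their folds were 1.99, 2.02 and 2.02.

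**Figure D1:**
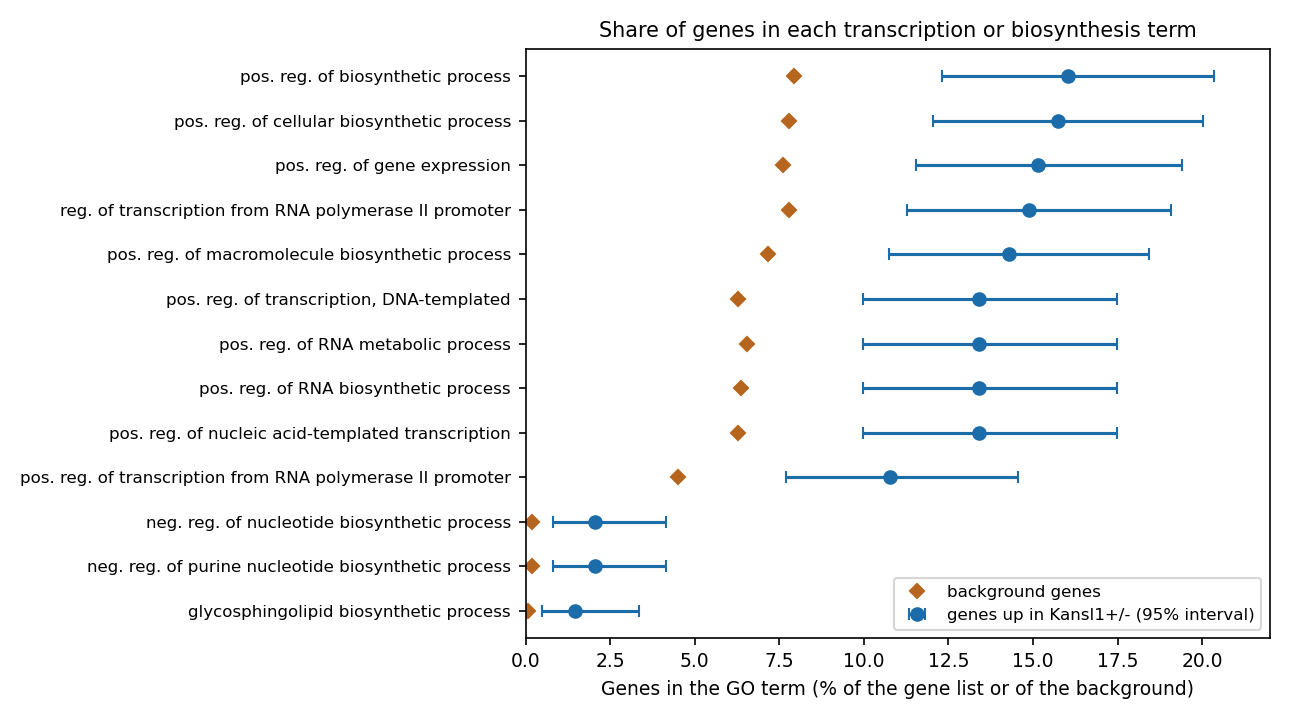
Share of the 343 genes up in Kansl1+/- (circles, exact 95% interval) and of the 23468 background genes (diamonds) in each of the 13 terms, in percent. The 10 terms on transcription, gene expression and general biosynthesis take 10.8% to 16.0% of the list against 4.52% to 7.94% of the background, and their intervals overlap one another.

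The other 3 of the 13 terms entered through the word biosynthetic and concern small metabolites, not gene expression. Glycosphingolipid biosynthetic process, the making of sugar-bearing lipids of the cell membrane, held 5 of its 16 background genes where 0.23 were expected. This is 1.46% of the list (0.475% to 3.37%) at a fold of 21.4. Negative regulation of nucleotide biosynthetic process and its purine child each held 7 of 47 genes where 0.69 were expected, 2.04% of the list (0.824% to 4.16%) at a fold of 10.2. In the grouping of terms in the deposited table, the 10 terms on gene expression and general biosynthesis stood in 1 group of 12 terms. The nucleotide terms stood with smooth muscle contraction and a G-protein coupled receptor pathway, and the lipid term with sprouting angiogenesis. Control of transcription, RNA or gene expression is thus named in 7 of the 13 terms, and general biosynthesis in another 3.

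The 10 large terms shared most of their genes, and each narrower term was taken out of the wider one to count the genes that the wider one adds. The nesting is that of the GO hierarchy, which was not among the files. Positive regulators of RNA polymerase II transcription were 37 of the 46 positive regulators of transcription (80.4%, 66.1% to 90.6%) and 37 of the 55 positive regulators of biosynthesis (67.3%, 53.3% to 79.3%). Among background genes the same shares were 72.1% (1061 of 1471) and 56.9% (1061 of 1864), inside both intervals. For these pairs the split of the listed genes between inner and outer terms was not set apart from that of term size. In regulation of transcription from RNA polymerase II promoter, the same inner term took 37 of 51 listed genes (72.5%, 58.3% to 84.1%). Its background share there was 58.0% (1061 of 1828), just below that interval. Inner and outer terms alike had to pass the cutoff, and this difference was not tested. Of the background genes of that inner term, 3.49% were up in Kansl1+/- (2.47% to 4.77%), where 1.46% of all background genes were. The positive regulators of transcription outside it numbered 9 of 410, or 2.20% (1.01% to 4.13%), a fold of 1.5.

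Genes that regulate RNA polymerase II transcription without being annotated as positive regulators were 14 of 767 where 11.2 were expected. Their share in the list was 1.83% (1.00% to 3.04%), and the fold was 1.25. The interval includes the 1.46% of all background genes and overlaps that of the positive regulators. As given above, positive regulators took 72.5% (58.3% to 84.1%) of the listed genes that regulate RNA polymerase II transcription. They took 58.0% of the background genes that do so, just below that interval. No difference between these shares was tested. Genes annotated in both directions count as positive regulators here.

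Positive regulators of RNA synthesis not already counted under transcription gave 0 of 26 genes, which allows a share of up to 11.5% when a count of 0 is taken as under 3 counts, and those of RNA metabolism beyond RNA synthesis gave 0 of 37, which allows up to 8.11% by the same rule. These limits are not the Clopper-Pearson bounds, which are 13.2% and 9.49%. Under this nesting, the 46 genes of these terms were the same genes. Genes annotated as positive regulators of gene expression but not of transcription gave 6 of 312 where 4.56 were expected, a fold of 1.32. The step at which these genes act was not examined. Positive regulators of macromolecule synthesis beyond RNA gave 3 of 185 (1.62%, 0.336% to 4.67%), beside 1.46% of all background genes. Those of cellular biosynthesis beyond RNA synthesis gave 8 of 330 where 4.82 were expected, a fold of 1.66 (2.42%, 1.05% to 4.72%). Those of biosynthesis beyond macromolecules gave 6 of 182 where 2.66 were expected, a fold of 2.26 with a wide interval (3.30%, 1.22% to 7.04%). Each layer is what was left of a listed term once a narrower listed term was removed, so none of these folds was tested and they do not place the excess in any layer.

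**Figure D2:**
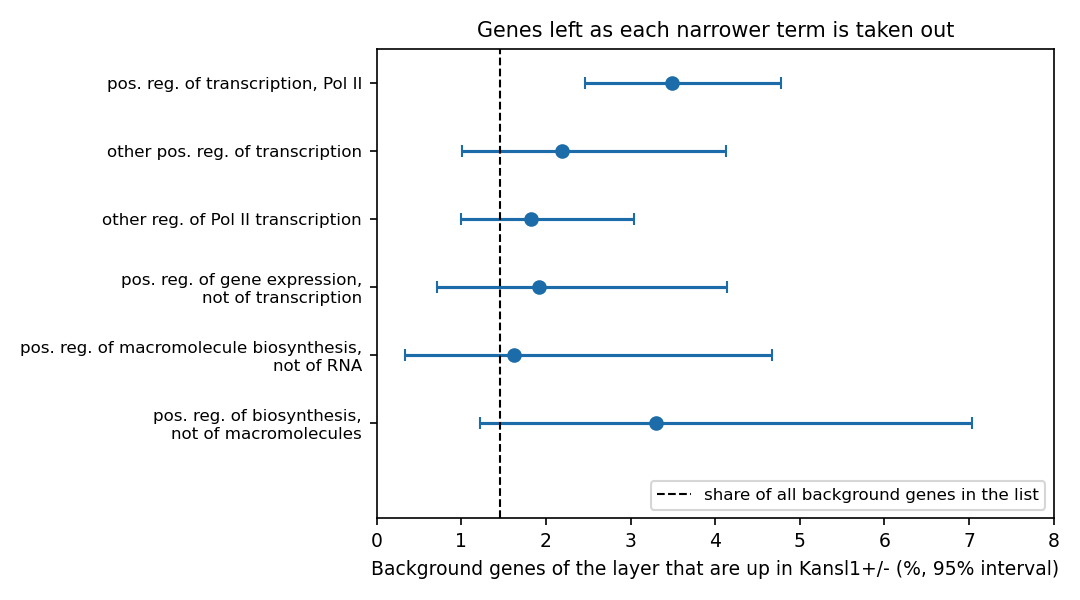
Percent of the background genes of each layer that are up in Kansl1+/- (circles, exact 95% interval), with the 1.46% of all background genes as a dashed line. Positive regulation of RNA polymerase II transcription sits at 3.49% with its interval above the line, and the intervals of the other 5 layers include it. The first had to pass the cutoff to be listed and the others are remainders under no such rule, so the contrast is a description only.

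Folds were compared with those of the other terms listed for the same genes. The median fold of the 13 terms was 2.10, and that of all 302 listed terms was 3.05. A fold of at least 2 was reached by 10 of the 13, where 84.1% of the 302 listed terms reached it. Fold falls with term size in such a table, because a large term passes the cutoff at a smaller fold. The comparison is closer among the 58 terms with 1000 to 2000 background genes. There the 10 terms on gene expression and general biosynthesis had a median of 2.04 (range 1.91 to 2.39), and the other 48 had a median of 2.44 (1.92 to 3.51). A fold of at least 2 was reached by 7 of these 10, where 91.4% of the 58 reached it. Among the terms with under 50 background genes, the 3 on lipid and nucleotide synthesis had a median of 10.2 and the other 11 a median of 13.2 (10.9 to 20.5), and the 21.4 of glycosphingolipid synthesis was the highest fold of the 302 listed terms.

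By fold, positive regulation of transcription from RNA polymerase II promoter ranked 27 of these 58 terms, and positive regulation of transcription, DNA-templated ranked 39. Regulation of transcription from RNA polymerase II promoter ranked last. The leading terms of that size were neuron differentiation at 3.51, epithelium development at 3.25 and cell morphogenesis at 3.04. The terms share genes, so these ranks describe the table and test nothing.

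**Figure D3:**
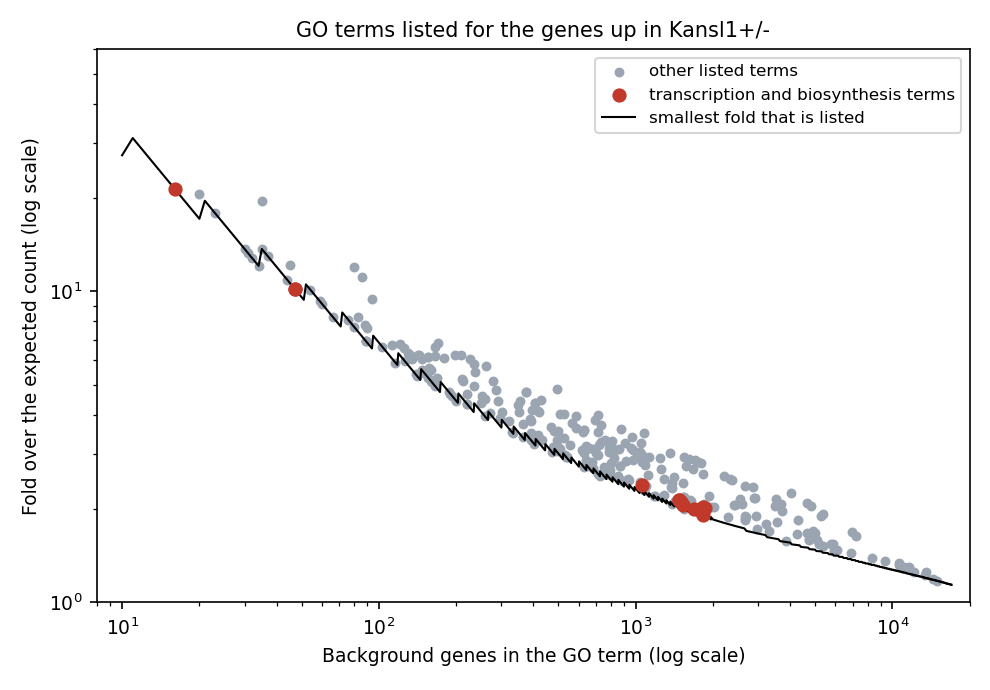
Fold over the expected count against the number of background genes for the 302 terms listed for the genes up in Kansl1+/-, both on log scales, with the smallest fold that the cutoff allows at each size as a line. The 13 transcription and biosynthesis terms lie on the line or just above it, between 0 and 3 genes over the smallest listed count, where 46.0% of the other 289 terms also lie.

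All 13 terms lay within 3 genes of the smallest count that is listed, as did 133 of the other 289 terms (46.0%). Among the terms with 1000 to 2000 background genes it was 10 of 10 against 13 of 48 (27.1%), a description of terms that share genes. At the authors' cutoff, positive regulation of transcription from RNA polymerase II promoter needed 35 genes and held 37, and positive regulation of transcription, DNA-templated needed 44 and held 46. Positive regulation of biosynthetic process needed 52 and held 55, which at 3 genes was the widest margin, shared with the cellular biosynthetic term. Regulation of transcription from RNA polymerase II promoter held exactly the 51 that it needed. Glycosphingolipid biosynthetic process, with 5, and both nucleotide terms, with 7, also stood at the smallest count that is listed, as did 57 of the other 289 terms.

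The absence of these terms from the other 7 tables does not give their counts. It sets a limit on them if every term below the cutoff was listed, which is assumed here. Had positive regulation of transcription from RNA polymerase II promoter held more than 45 of the 512 genes up in Del/+, it would have been listed, so its share there was at most 8.79% and its fold at most 1.94. For the 483 genes down in Kansl1+/- the limit was 43 genes (8.90%), and for the 343 genes down in Del/+ it was 34 (9.91%). The value in the genes up in Kansl1+/- was 10.8%, with an interval from 7.71% to 14.6% that takes in all 3 limits. For positive regulation of transcription, DNA-templated, the limits were 57, 55 and 43 genes in the same order, or 11.1%, 11.4% and 12.5% of the lists against 13.4%. In each of these 3 lists, the limit in fold lay under the value of the genes up in Kansl1+/- but inside its interval for 13 of 13 terms.

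In the 4 clusters the limits say less. The clusters hold 160, 214, 212 and 162 genes, and a shorter list needs a higher fold to be listed. Positive regulation of transcription from RNA polymerase II promoter could have held 21 genes of cluster 1 and 21 of cluster 4 and still be missing, which is 13.1% and 13.0% of their genes. For cluster 2 and cluster 3 the limit was 25 genes, or 11.7% and 11.8%. Each of these shares is above the 10.8% measured in the genes up in Kansl1+/-. The limit lay above that list's fold for 13 of 13 terms in each cluster. The same held for small terms, since 3 genes of glycosphingolipid synthesis could be in cluster 1, or 4 in cluster 2, without the term being listed. A difference between the genes up in Kansl1+/- and any other list was therefore neither measured nor tested for these terms.

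**Figure D4:**
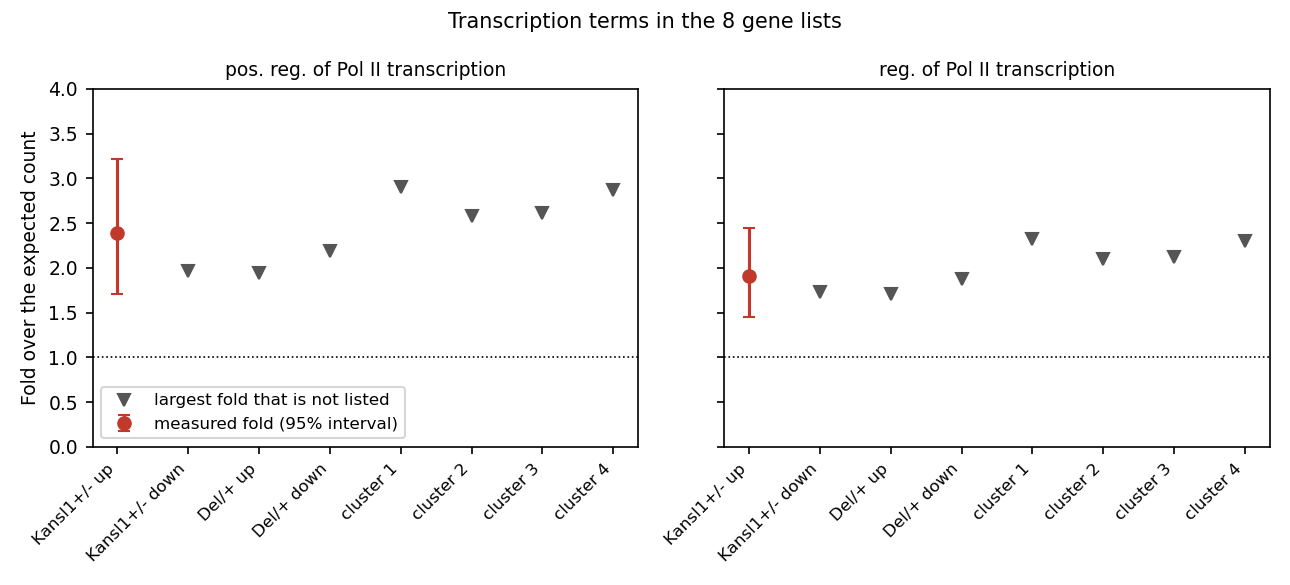
Fold of the 2 RNA polymerase II terms in the genes up in Kansl1+/- (circle, exact 95% interval of the share divided by the background share) and the largest fold that would have stayed unlisted in each of the other 7 lists (triangles). For positive regulation, the limits of the Kansl1+/- down and both Del/+ lists (1.94 to 2.19) lie under the measured 2.39 and inside its interval, and those of the 4 clusters (2.58 to 2.90) lie above it.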

How the data were processed

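H3K4me3 ChIP-seq libraries of 12 mice (3 Del/+, 3 Kansl1+/- and 6 wt) were mapped by the authors with BWA 0.6.2, and their processing notes name mm9. Peaks were called with their own script. Promoters of 3 mutant and 6 wt mice were compared by a test on read counts at p below 0.01. The genes were tested per GO term with a hypergeometric test, for which the paper names Benjamini or Bonferroni correction. The deposited tables hold, per listed term, p-values and a fold computed by the authors, how many genes the term has among the listed and among all annotated genes, and the expected number, which is a score that the authors derived. The authors' p-values entered to read the cutoff of 1e-05 and the number of terms tested (the median ratio of Bonferroni value to p). They also served to score the derived background, and are not printed. There were 0 columns of single samples.

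List sizes and the background were derived as the integers that return every printed expected number. Only 1 background size between the values searched did so, and it returned the expected number and fold of all 1076 terms. In 8 simulated tables with 1076 terms, all 8 list sizes were recovered. Folds were computed unrounded. Limits for unlisted terms are the largest counts whose one-sided hypergeometric p is not below the cutoff. They assume that each term was tested on the same background and that every term below the cutoff was listed. No new term was tested for enrichment. The hypergeometric formula served only for these limits, for the smallest listed counts, for listing at other cutoffs and to score the background. Every one of the 13 terms is named, and genes were named by their place in the gene sheets, with no value. The terms, lists and limits were chosen with earlier results of these data known. Alternatives were 1 gene fewer per term, other words, folds and cutoffs, and terms with equal counts taken once. The ontology itself and reads were not used here. Calculations ran in Python 3.11.15 with scipy 1.17.1 and numpy 2.4.6, and matplotlib 3.10.9 drew the plots.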

Additional observations from a re-analysis of the deposited data

How the results depend on the processing

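Without the word biosynthetic, 7 terms were left, and 5 of them had a fold of at least 2. With a cutoff 10 times stricter, 5 of the 13 terms would have been listed, beside 214 of all 302 (70.9%), and among terms with 1000 to 2000 background genes 5 of 10 beside 38 of the other 48 (79.2%). These were both terms of 46 genes on positive regulation of transcription, the RNA polymerase II term of 37 genes, and the terms of 54 and 55 genes on cellular and general biosynthesis. A fold of at least 3 was reached by 3 terms. With 1 gene fewer in each term, 9 would have been listed and 8 had a fold of at least 2, and with equal counts taken once there were 11 terms. At a fold of at least 1.5, 13 passed. The median fold stayed between 2.05 and 2.10. Taking 1 gene from a single term cannot move its share out of its interval, so those values say nothing of stability. The 91 limits rose by 0 to 4 genes at the stricter cutoff. No paired analysis was possible because the tables hold no values per mouse, and for the same reason no library could be left out. The terms share genes and were called against all annotated genes, not those with a peak in the hippocampus.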

Other observations

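Wider terms that the naming rule does not take were listed beside these. Among the genes up in Kansl1+/-, positive regulation of cellular metabolic process held 75 genes against 43.48 expected (fold 1.72), and positive regulation of nucleobase-containing compound metabolic process held 50 against 25.56 (fold 1.96). Positive regulation of metabolic process was listed for the genes up in Del/+, with 115 of 512 genes (22.5%, exact 95% interval 18.9% to 26.3%) against 76.88 expected, a fold of 1.5. It was not listed for the genes up in Kansl1+/-, where up to 81 genes, or 23.6%, would have stayed unlisted.

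Among the genes up in Del/+, negative regulation of cAMP metabolic process held 8 of 45 background genes (fold 8.15) and negative regulation of cyclic nucleotide metabolic process 8 of 48 (fold 7.64). These are neighbours in subject of the nucleotide terms listed for the genes up in Kansl1+/-, with 7 of 47 genes. Which genes the terms share was not tested.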
